A study of Homo sapiens with 6 samples.

Results

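Heat shock and J-domain chaperones are the proteins that keep other proteins folded. The 74 genes described here were chosen by name: protein-coding genes whose symbols start with HSPA to HSPH or HSP90, or with DNAJA, DNAJB or DNAJC and a digit, without HSPG2, HSPBAP1 and HSPBP1. They are 74 of the 61852 genes in the count table, and 46 of them had enough counts to be tested. The family itself was picked with measured values of the same comparison in view, so the counts of members given below are a description and lend no support to any claim about the family. The members fall into 13 HSP70 genes, 45 DNAJ genes, 4 HSP90 and HSPH genes, 4 genes with products of the mitochondrial HSP70, HSP60 and HSP10 kind, and 8 small heat shock protein genes.

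The libraries came from MEG-01, an established human megakaryoblastic leukaemia line, and poly(A)-selected RNA was sequenced. In the knockdown group (3 libraries), the cells were transduced with sh2-MELK, a hairpin against the mitotic kinase gene MELK. In the control group (3 libraries), the cells were transduced with pLKO.1, the vector given as control. The series' design text calls the 3 libraries of a group independent biological replicates and asks which genes move with MELK in megakaryocytic cells. A single hairpin was used, so the loss of MELK and any other effect of that hairpin cannot be told apart.

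HSP70 proteins hold exposed hydrophobic stretches of clients in a cycle of ATP binding and hydrolysis. J-domain proteins (DNAJ) bring clients to HSP70 and trigger the hydrolysis, and nucleotide exchange factors such as HSPH1 and the BAG proteins release the client. HSP90 takes over clients that are nearly folded, many of them kinases and receptors, with the help of co-chaperones such as CDC37, STIP1 and AHSA1. The chaperonin HSPD1 with its lid HSPE1, and the HSP70 protein HSPA9, do this work in mitochondria. Many of these genes are driven by heat shock factor 1 (HSF1), which binds heat shock elements, inverted repeats of the unit GAA in their promoters, when unfolded proteins accumulate. In the related erythroid lineage HSP70 is known to protect the transcription factor GATA1.

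The promoters are shown first because the elements through which HSF1 is known to act are visible in them. RefSeq promoter windows on GRCh38.p14, running from 250 bases before to 50 after an annotated start, were matched by symbol to 66 of the 74 members, and 14 of these had more than 1 window. Pairs of units were searched as GAANNTTC and TTCNNGAA, which read alike on both strands. Elements of 3 units were searched as either pair extended by 2 bases of any kind and the next unit of the alternating repeat, on both strands. Every element of 3 units also contains pairs. The element of 3 units was found in the windows of 7 members, DNAJA1, DNAJB6, HSP90AA1, HSP90AB1, HSPA6, HSPA8 and HSPD1, which is 10.6% of the 66. It was found in 172 of all 35116 windows (0.49%), or 166 of 27305 genes (0.608%). The 30-base stretches around these elements, and around the pairs of the near-identical genes HSPA1A and HSPA1B, read as follows, each 5′ to 3′ on the strand of its gene with the element in capitals.
HSPA8, chr11:123062171-123062200 (−): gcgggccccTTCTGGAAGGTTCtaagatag
HSPA8, chr11:123062346-123062375 (−): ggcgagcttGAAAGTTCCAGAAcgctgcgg
HSP90AB1, chr6:44247769-44247798 (+): gggagcaggTTCTGGAAGATTCatgggctc
HSP90AB1, chr6:44247822-44247851 (+): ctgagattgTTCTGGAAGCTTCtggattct
HSP90AA1, chr14:102087112-102087141 (−): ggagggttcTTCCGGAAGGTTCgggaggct
HSPD1, chr2:197500061-197500090 (−): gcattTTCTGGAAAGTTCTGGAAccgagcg
DNAJA1, chr9:33025267-33025296 (+): cgccgggcgGAACTTTCCAGAAcgctcggt
DNAJB6, chr7:157336864-157336893 (+): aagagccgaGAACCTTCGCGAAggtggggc
HSPA6, chr1:161524457-161524486 (+): gcggaaaggTTCGCGAAAGTTCgcggcggc
HSPA1A, chr6:31815426-31815455 (+): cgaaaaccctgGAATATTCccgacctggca
HSPA1B, chr6:31827622-31827651 (+): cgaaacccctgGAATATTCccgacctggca

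Counted from the annotated start as base 1, with the base before it as -1, the elements of HSPA8 spanned bases -55 to -43 and -230 to -218. Those of HSP90AB1 spanned -112 to -100 and -165 to -153, that of HSP90AA1 -88 to -76, that of DNAJB6 -131 to -119 and that of HSPA6 -74 to -62. The element of DNAJA1 lay after its start, at bases 4 to 16. In GENCODE release 29 the stretches of DNAJA1, HSPA8 (both) and HSP90AA1 overlap annotated exons of those genes, and the stretch of HSPD1 overlaps exons of HSPD1 and HSPE1. The run of HSPD1, at -245 to -228, holds overlapping elements and lies between that start of HSPD1 and the divergent RefSeq start of HSPE1, whose own window held no match. At least a pair was found in 22 members (33.3%), against 13.5% of all windows and 16.2% of all genes with a window. Of the 44 members that were tested and had a window, the 15 with a pair had a median log2 fold change, knockdown over control, of 0.98, and the 29 without one had a median of -0.02. The 7 members with an element of 3 units had a median of 1.02, and the other tested members 0.25. The median of 1.02 is the value of HSPA6, which did not pass the threshold given below. These medians are a description of members that were chosen for their values. Only 79.6% of all genes tested had a window, and the comparison was not made over them, so these medians have no background beside them. A match is not a site of binding, and a window without a match says only that these letters are not in it.

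**Figure D1:**
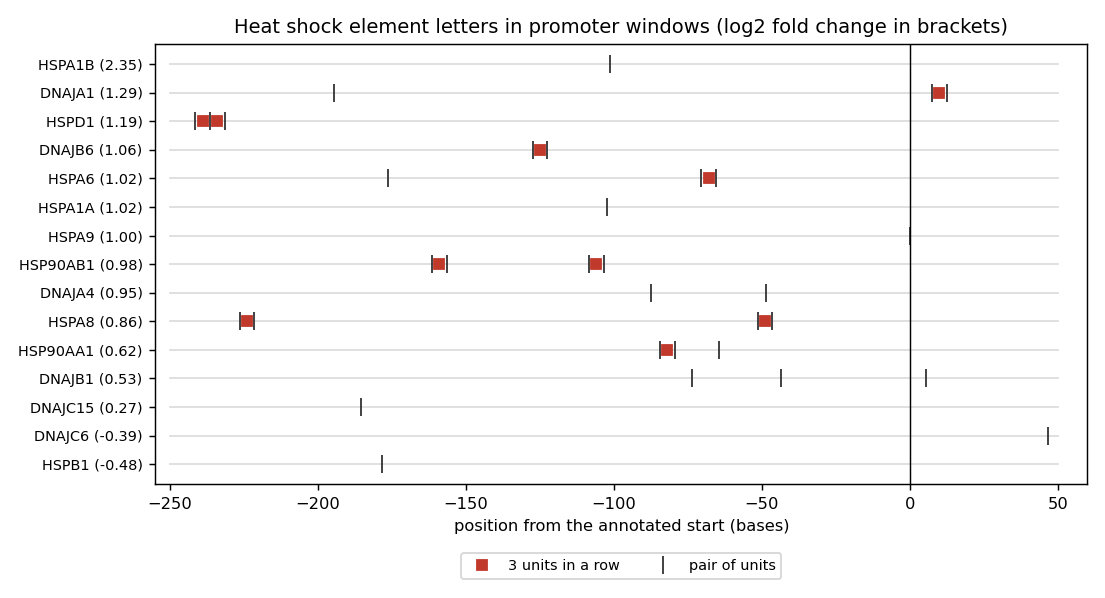
Positions of the heat shock element letters in the promoter windows of the 15 tested members that hold at least a pair of units, in bases from the annotated start (0 line), with each gene's log2 fold change, knockdown over control, in brackets. Red squares mark 3 units in a row and black ticks pairs. The genes are ordered by fold change, and the 7 genes with red squares lie between 0.62 and 1.29. Of the genes shown, HSPA6 and DNAJC15 did not pass the threshold.

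Library totals ran from 18945176 to 20410845 counts in the knockdown group and from 20208255 to 21711313 in the control group. The sample titles and library names give no batch. Knockdown and control libraries stood far apart over the 5038 genes that averaged 500 counts or more. Pearson correlations of log2 levels over these genes were 0.8912 to 0.9075 between groups and 0.9944 to 0.9963 within them. Of 9356 genes tested, 57.2% passed the threshold (edgeR quasi-likelihood test, Benjamini-Hochberg adjusted p below 0.05 over all genes tested), 28.2% as higher and 29.0% as lower in knockdown cells. In 35797 genes (57.9%) the deposited table holds only the values 0, 1, 2, 10 and 100, in nearly equal shares. Every count may hold such an added number, and so only genes with a mean above 100 counts were tested. MELK itself had 16, 124 and 26 counts in the knockdown libraries, against 219, 206 and 238 in the control libraries. Knockdown replicate 2 stood above the other knockdown libraries, and its count may hold an added 100. The log2 fold change of MELK was -1.98 ± 0.60 (SE, edgeR's adjusted p = 0.0142). It did not pass with filterByExpr as the only filter (edgeR adjusted p = 0.104). Without knockdown replicate 3 it was -1.66 (edgeR adjusted p = 0.0592), and without knockdown replicate 2 it was -3.32 (edgeR adjusted p = 0.000116). Modelled as reads plus an added number, MELK had a log2 fold change of -3.39, with a 95% interval of -3.88 to -2.96. Of 8 megakaryocyte markers, 6 had a mean above 100 counts, as had 1 of 3 epithelial markers. The lists of T cell, B cell, epithelial and fibroblast markers, of 3 genes each, summed to at most 18.3 counts relative to a library of 1e6 (CPM) in a knockdown library and 12.8 CPM in a control library. The fibroblast list summed to 5.52 to 16.7 CPM in knockdown libraries and 1.78 to 6.86 CPM in control libraries, with overlap. The summed level of the megakaryocyte list was 1680 to 1750 CPM in knockdown libraries, against 2950 to 3070 CPM in control libraries. It moved with the groups, and its part in the results below was not tested.

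Chaperone transcripts as a whole took up more of the knockdown libraries. CPM are given here relative to library totals scaled by the trimmed mean of M values (TMM). All 74 members together had 11787, 12124 and 12037 CPM in knockdown libraries, against 6462, 7162 and 7185 CPM in control libraries, a ratio of 1.73 between the means. The groups did not overlap. Unscaled, this was 1.13% to 1.15% of all counts in knockdown libraries and 0.591% to 0.654% in control libraries. HSP90AB1 made up 39.5% of the summed level in knockdown cells and 34.7% in control cells, and HSPA8 made up 26.6% in knockdown cells and 25.3% in control cells. In bulk RNA, more transcript per cell and more cells of a type that carries much of it cannot be told apart.

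Among the 46 members tested there were 25 that rose, 7 that fell and 14 that did not pass, beside 28.2% and 29.0% of all genes tested called higher and lower. The median log2 fold change of the tested members was 0.44, against a median of 0.00 over all genes tested. All knockdown libraries lay above all control libraries in 24 members, beside 31.7% of all genes tested, and below them in 8, beside 32.3%. In a separate fit limited to mean counts of 500 or more, where the added numbers weigh least, 27 members were tested. In it 19 members rose and 5 fell, beside 38.1% of all 5038 genes called higher and 38.9% called lower. The fold changes of all genes ran against their GC content (Spearman's rho = -0.39 over 5031 genes, a description across genes), and the members tested had a lower median GC content (46%) than all genes tested (50.2%). With the trend on GC content and length removed, the members' median was 0.22 and 22 members rose.

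**Figure D2:**
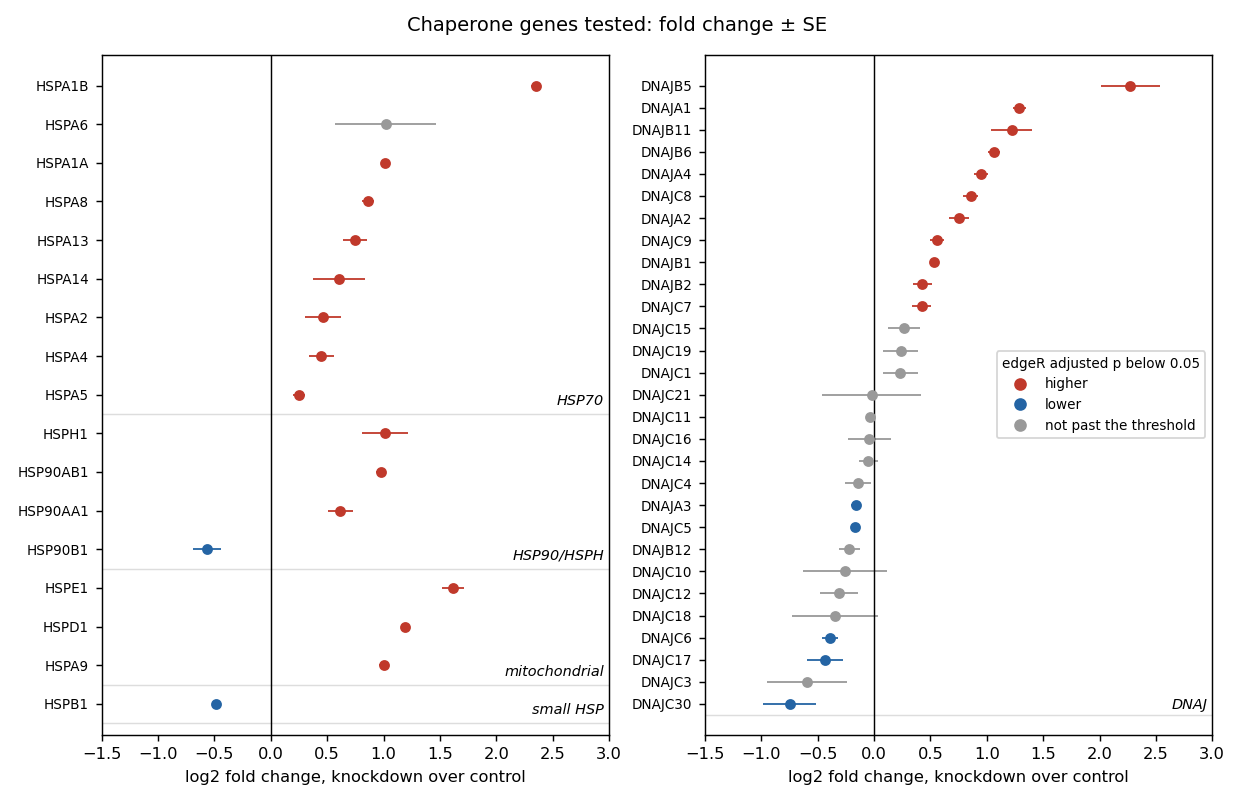
Log2 fold change (knockdown over control) of the 46 chaperone genes tested, with bars of 1 SE, grouped by class on the left and for the DNAJ genes on the right. Red points passed the threshold as higher (25 genes), blue points as lower (7 genes) and grey points did not pass it (14 genes); HSPA1B and DNAJB5 lie farthest to the right, at 2.35 and 2.27.

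**Figure D3:**
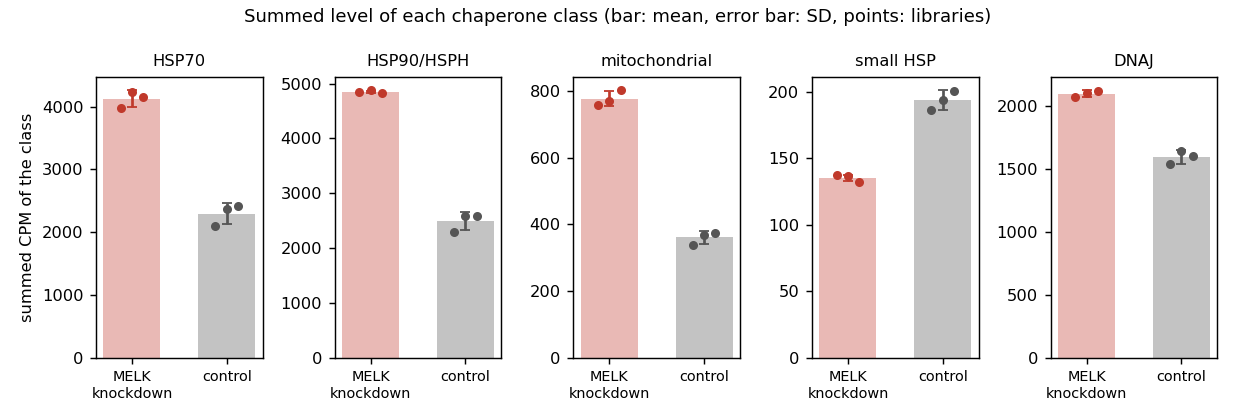
Summed CPM of each chaperone class in MELK knockdown and control libraries, with the mean as a bar, the SD of 3 libraries as an error bar and the libraries as points. The knockdown libraries lie above the control libraries in every class but the small heat shock proteins, where they lie at 132 to 137 CPM against 186 to 201 CPM in control libraries. HSPB1 alone makes up 130 to 134 CPM of that sum in knockdown libraries and 177 to 189 CPM in control libraries. The rest comes from untested genes, HSPB8 among them, whose counts are or may hold added numbers.

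In the HSP70 class, 8 of the 9 genes tested rose and HSPA6 did not pass, beside 28.2% of all genes tested called higher. The median log2 fold change of the class was 0.75. HSPA8, the constitutive HSP70 of the cytosol (ENSG00000109971.14, chr11:123057489-123063230, minus strand), was the most abundant member of the class per length. Its level was 3059, 3280 and 3215 CPM in knockdown libraries, against 1593, 1817 and 1851 CPM in control libraries. The lowest knockdown library was well above the highest control library, and the log2 fold change was 0.86 ± 0.05 (SE, edgeR's adjusted p = 4.51e-08).

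HSPA1A and HSPA1B encode the stress-inducible HSP70 and lie next to each other on chromosome 6, at chr6:31815464-31817946 and chr6:31827735-31830255 on the plus strand. HSPA1B had 240, 238 and 228 CPM in knockdown libraries, against 43.8, 45.8 and 48.5 CPM in control libraries. With a log2 fold change of 2.35 (standard error 0.05, adjusted p = 1.81e-11 by edgeR), it had the largest fold change of all members tested, 5.11-fold. HSPA1A had 216, 220 and 210 CPM in knockdown libraries, against 104, 106 and 110 CPM in control libraries, or 1.02 ± 0.04 as a log2 fold change (SE, edgeR's adjusted p = 1.56e-09). Per length, the level of HSPA1A was 0.914 to 0.939 times that of HSPA1B in knockdown libraries and 2.31 to 2.40 times that in control libraries. The transcripts share most of their sequence: 69.9% of the 100-base windows of HSPA1A's transcripts also occur in another gene, and 72.7% of those of HSPA1B. HSPA1B also overlaps exons of AL671762.1 on the same strand over 36.5% of its exon length, against 0% for HSPA1A. How reads that match more than 1 gene were counted is not known from the labels. The split between HSPA1A and HSPA1B, and the level of HSPA1B, are therefore uncertain. The sum of HSPA1A and HSPA1B, chosen as a measure after the data had been seen, does not remove the overlap with AL671762.1. It was 456, 458 and 438 CPM in knockdown libraries, against 147, 151 and 159 CPM in control libraries. The log2 fold change of the sum was 1.56 ± 0.04 (SE, edgeR's adjusted p = 4.82e-11).

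HSPA5, the HSP70 protein of the endoplasmic reticulum known as BiP, had 349, 371 and 363 CPM in knockdown libraries and 272, 324 and 314 CPM in control libraries. It rose the least of the class, with a log2 fold change of 0.25 (standard error 0.06, adjusted p = 0.00243 by edgeR). HSPA13, a microsome-associated member, averaged 29.0 ± 1.0 CPM in knockdown libraries and 17.3 ± 0.2 CPM in control libraries (SD, n = 3 each), with a log2 fold change of 0.75. HSPA4, a relative of HSPH1 that acts in nucleotide exchange, averaged 38.3 ± 1.5 CPM in knockdown libraries and 28.0 ± 4.5 CPM in control libraries, with a log2 fold change of 0.45. HSPA14, a partner of DNAJC2 at the ribosome, averaged 17.1 ± 4.0 CPM in knockdown libraries and 11.2 ± 2.7 CPM in control libraries, and the libraries of the groups overlapped. Of its transcript windows, 20.1% also occur in another gene. HSPA2, best known from the testis, averaged 25.2 ± 1.0 CPM in knockdown libraries and 18.3 ± 4.4 CPM in control libraries.

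The calls of these lesser members were not equally firm. HSPA14 (log2 fold change 0.61, edgeR adjusted p = 0.0419) no longer passed without control replicate 1 or 3 or knockdown replicate 2 or 3, where its edgeR adjusted p was 0.0569 to 0.201. HSPA2 (0.46, edgeR adjusted p = 0.0265) no longer passed without any of 5 libraries, all but control replicate 3, at edgeR adjusted p values of 0.0528 to 0.1. With the trend on GC content and length removed, HSPA13, HSPA14, HSPA2, HSPA4 and HSPA5 no longer passed, with log2 fold changes of 0.22, 0.30, 0.23, 0.17 and 0.05.

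HSPA6 encodes an HSP70 made almost only under stress. It had 140, 171 and 237 counts in knockdown libraries, against 55, 59 and 167 in control libraries. Control replicate 3 overlapped the knockdown libraries, and each of these counts may hold an added number of up to 100. The log2 fold change was 1.02 ± 0.45 (SE, edgeR's adjusted p = 0.0741), and without control replicate 3 it was 1.71 (edgeR adjusted p = 0.00552). HSPA6 also passed with DESeq2 (adjusted p = 0.0217), with limma-voom (adjusted p = 0.0447), with the trend on GC content and length removed (edgeR adjusted p = 0.0408) and in the model of reads plus an added number, which gave 1.36. Of HSPA6's transcript windows, 27.6% also occur in another gene, among them the neighbouring pseudogene HSPA7. HSPA7 had 231, 246 and 124 counts in knockdown libraries and 45, 26 and 133 in control libraries. HSPA1L, HSPA4L, HSPA12A and HSPA12B had too few counts to be tested. HSPA4L had 51, 53 and 55 counts in knockdown libraries, against 48, 31 and 25 in control libraries. HSPA1L had 21, 136 and 129 counts in knockdown libraries, against 26, 22 and 18 in control libraries, and the counts of 136 and 129 may hold an added 100. Modelled as reads plus an added number, HSPA1L had a log2 fold change of 0.57, with a 95% interval of 0.03 to 1.31. HSPA12A and HSPA12B, distant members, had 1 to 102 counts in knockdown libraries and 0 to 101 in control libraries, which is the range of the added numbers.

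**Figure D4:**
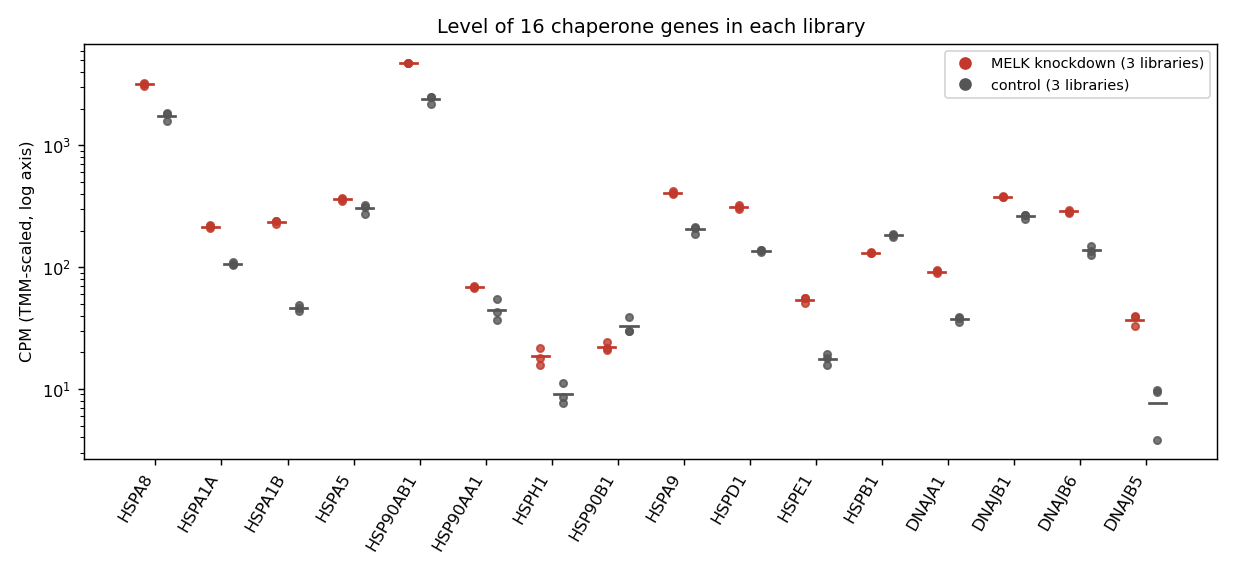
Level of 16 chaperone genes in each library, in TMM-scaled CPM on a log axis, with knockdown libraries in red left of control libraries in grey and the group mean as a line. The 3 libraries of a group lie close together for the abundant genes, as in HSP90AB1 at 4718 to 4766 CPM in knockdown libraries and 2197 to 2519 CPM in control libraries, and apart for low ones such as DNAJB5 in control libraries.

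Among the partners of HSP70, 11 of the 29 DNAJ genes tested rose, 5 fell and 13 did not pass, and the class median was -0.02. This is 37.9% higher and 17.2% lower, beside 28.2% and 29.0% of all genes tested. The subfamilies differed in their counts. Of the DNAJA genes, which have the domain order of the bacterial founder, 3 of 4 rose and 1 fell. Of the DNAJB genes tested, 5 of 6 rose and DNAJB12 did not pass. Of the DNAJC genes tested, which share little but the J domain, 3 of 19 rose (15.8%) and 4 fell (21.1%). Most of the DNAJ genes that did not pass were thus of this kind. The subfamilies also differed in depth: the fit limited to mean counts of 500 or more held 4 DNAJA, 4 DNAJB and 7 DNAJC genes. Of these, 3 of each subfamily rose, and 1 DNAJA, 0 DNAJB and 2 DNAJC genes fell. In that fit 38.1% of all genes were called higher and 38.9% lower. The part of depth in the difference between subfamilies was not tested.

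DNAJA1, a main partner of HSPA8 in the cytosol (ENSG00000086061.16, chr9:33025211-33039907, plus strand), had 89.4, 92.2 and 94.1 CPM in knockdown libraries, against 35.3, 38.9 and 38.6 CPM in control libraries. The groups lay far apart, with a log2 fold change of 1.29 (standard error 0.06, adjusted p = 6.97e-09 by edgeR). DNAJB6, which is known to hold back the aggregation of polyglutamine proteins, had 282, 281 and 297 CPM in knockdown libraries, against 126, 149 and 136 CPM in control libraries. Its log2 fold change was 1.06 ± 0.05 (SE, edgeR's adjusted p = 1.58e-08). DNAJB1, the classical HSP40 and an HSF1 target, had the highest level per length of all DNAJ genes tested, at a mean of 103 CPM per kb in knockdown libraries and 71.5 CPM per kb in control libraries. It had 374, 387 and 378 CPM in knockdown libraries, against 251, 269 and 267 CPM in control libraries, and rose by a log2 fold change of 0.53 (standard error 0.04, adjusted p = 1.39e-07 by edgeR). The lowest DNAJ gene tested, per length, was DNAJC10, a reductase of the endoplasmic reticulum. Its means were 0.359 CPM per kb in knockdown libraries and 0.43 CPM per kb in control libraries. This rank rests on an annotated exon length of 21835 bases and on counts of 83 to 244, which may hold added numbers.

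DNAJA4 averaged 129 ± 1.9 CPM in knockdown libraries and 67.0 ± 5.6 CPM in control libraries (SD, n = 3 each), with a log2 fold change of 0.95. DNAJA2, another cytosolic HSP70 partner, averaged 54.3 ± 2.5 CPM in knockdown libraries and 32.2 ± 3.4 CPM in control libraries, with a log2 fold change of 0.76. DNAJC8, which is found with the spliceosome, averaged 155 ± 9.97 CPM in knockdown libraries and 85.6 ± 7.1 CPM in control libraries, with a log2 fold change of 0.86. DNAJC9, a chaperone of histones H3 and H4, averaged 122 ± 4.5 CPM in knockdown libraries and 82.9 ± 7.5 CPM in control libraries, with a log2 fold change of 0.56. These 4 genes passed at edgeR adjusted p values of 7.79e-08 (DNAJA4), 1.31e-05 (DNAJA2), 4.05e-07 (DNAJC8) and 1.3e-05 (DNAJC9), and in each the groups did not overlap. DNAJC9 overlaps exons of genes on the opposite strand over 28.6% of its exon length, and whether the counting used strand is not given in the sources used here.

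DNAJB5 had fewer counts but the largest fold change of the DNAJ genes, and is named because of it. It had 745, 749 and 596 counts in knockdown libraries, against 186, 180 and 75 in control libraries. The log2 fold change was 2.27 ± 0.26 (SE, edgeR's adjusted p = 1.37e-05), and it was 3.11 when each count was modelled as reads plus an added number. The other DNAJ genes that rose were DNAJB11, DNAJB2 and DNAJC7, at log2 fold changes of 1.22, 0.43 and 0.42. The genes that did not pass were DNAJB12, DNAJC1, DNAJC3, DNAJC4, DNAJC10, DNAJC11, DNAJC12, DNAJC14, DNAJC15, DNAJC16, DNAJC18, DNAJC19 and DNAJC21, between -0.60 and 0.27. In the model of reads plus an added number, DNAJC3, DNAJC4, DNAJC10 and DNAJC21 passed as lower and DNAJC1 as higher.

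Of the 5 DNAJ genes that fell, 3 encode proteins outside mitochondria. DNAJC5, the cysteine string protein, had 165, 167 and 157 CPM in knockdown libraries, against 179, 189 and 182 CPM in control libraries, a log2 fold change of -0.17. With the trend on GC content and length removed the value was 0.04, and with libraries scaled by their totals alone it was -0.09 (edgeR adjusted p = 0.0614). DNAJC6, the clathrin uncoating factor auxilin, averaged 55.2 ± 4.6 CPM in knockdown libraries and 72.5 ± 3.4 CPM in control libraries, a log2 fold change of -0.39. DNAJC17 had 254, 244 and 234 counts in knockdown libraries and 342, 376 and 298 in control libraries, a log2 fold change of -0.44. Its call was lost without any 1 of 5 libraries, all but control replicate 3, at edgeR adjusted p values of 0.0592 to 0.148.

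Of the 5 DNAJ genes with mitochondrial products, 2 fell and 3 did not pass, beside 29.0% of all genes tested called lower. DNAJA3, the mitochondrial partner of HSPA9, had 103.2, 100.2 and 96.6 CPM in knockdown libraries, against 112, 111 and 112 CPM in control libraries. It fell by 0.16 on the log2 scale (edgeR adjusted p = 0.00782), and with libraries scaled by their totals alone by 0.09 (edgeR adjusted p = 0.113). DNAJC30 had 245, 152 and 142 counts in knockdown libraries and 260, 333 and 335 in control libraries, so knockdown replicate 1 came close to control replicate 1. Its log2 fold change was -0.75 (edgeR adjusted p = 0.0184), and it no longer passed without control replicate 2 or 3 or knockdown replicate 2 or 3, at edgeR adjusted p values of 0.0671 to 0.082. DNAJC11 (-0.03), DNAJC15 (0.27) and DNAJC19 (0.24), which are known from cristae and the import motor of the inner membrane, did not pass. With the trend on GC content and length removed DNAJC11 was at 0.13 (edgeR adjusted p = 0.0108), and it overlaps exons on the opposite strand over 27.9% of its exon length.

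Of the HSP90 and HSPH genes, 3 rose and 1 fell, beside 28.2% and 29.0% of all genes tested called higher and lower. HSP90AB1, the constitutive HSP90 of the cytosol (ENSG00000096384.20, chr6:44246166-44253888, plus strand), had the highest level of all members, per length and in all. It had 4732, 4766 and 4718 CPM in knockdown libraries, against 2197, 2504 and 2519 CPM in control libraries. The log2 fold change was 0.98 ± 0.05 (SE, edgeR's adjusted p = 6.57e-09). HSP90AA1, the stress-inducible form, had 68.7, 70.0 and 67.4 CPM in knockdown libraries, against 54.7, 42.9 and 36.8 CPM in control libraries, with a log2 fold change of 0.62 (standard error 0.11, adjusted p = 0.000613 by edgeR). The control libraries were more spread than the knockdown libraries, with control replicate 1 highest. Per length, HSP90AB1 stood 120 to 123 times above HSP90AA1 in knockdown libraries and 70.7 to 121 times above it in control libraries.

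HSPH1, the HSP110 nucleotide exchange factor of HSP70, had 337, 306 and 393 counts in knockdown libraries, against 220, 159 and 151 in control libraries. The groups did not overlap, and the log2 fold change was 1.01 ± 0.20 (SE, edgeR's adjusted p = 0.00107). HSP90B1, the HSP90 of the endoplasmic reticulum (GRP94), went the other way, with 391, 421 and 437 counts in knockdown libraries, against 764, 557 and 585 in control libraries. Its log2 fold change was -0.57 ± 0.12 (SE, edgeR's adjusted p = 0.00202). Members and list genes of the endoplasmic reticulum thus moved in both directions: HSPA5 at 0.25 and DNAJB11 at 1.22 rose, as did HSPA13 at 0.75, while HSP90B1 at -0.57, SEC63 at -0.62 and the exchange factor HYOU1 at -0.20 fell. HYOU1, with the trend on GC content and length removed, was at -0.05 (edgeR adjusted p = 0.158). DNAJC3 and DNAJC10 at -0.60 and -0.26 did not pass. In the model of reads plus an added number both passed as lower, at -0.62 (DNAJC3) and -0.83 (DNAJC10). With the trend on GC content and length removed, DNAJC3 also passed, at -0.96 (edgeR adjusted p = 0.0394). The grouping by compartment was made after the values were seen.

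All 3 mitochondrial class genes tested rose, beside 28.2% of all genes tested called higher. HSPD1, the chaperonin HSP60, had 299, 314 and 323 CPM in knockdown libraries, against 134, 139 and 138 CPM in control libraries. Its log2 fold change was 1.19 ± 0.04 (SE, edgeR's adjusted p = 4.23e-10). HSPE1, the HSP10 lid, had 55.5, 50.8 and 56.3 CPM in knockdown libraries, against 15.6, 19.4 and 18.1 CPM in control libraries, with a log2 fold change of 1.61 (standard error 0.10, adjusted p = 5.63e-08 by edgeR). HSPD1 and HSPE1 lie head to head on chromosome 2. Per length, HSPD1 stood 2.51 to 2.88 times above HSPE1 in knockdown libraries and 3.33 to 3.98 times above it in control libraries, with no overlap. HSPA9, the HSP70 protein of the matrix (mortalin), had 402, 404 and 421 CPM in knockdown libraries, against 188, 210 and 214 CPM in control libraries, and a log2 fold change of 1.00 (standard error 0.05, adjusted p = 6.91e-09 by edgeR). The readthrough gene HSPE1-MOB4 held only added numbers.

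Small heat shock proteins hold unfolded proteins without ATP. Of this class only HSPB1, known as HSP27, was tested. It had 134, 129.7 and 129.7 CPM in knockdown libraries, against 185, 177 and 189 CPM in control libraries. It fell, with no overlap of the groups and a log2 fold change of -0.48 (standard error 0.04, adjusted p = 7.5e-07 by edgeR). Its promoter window holds a pair of units at bases -182 to -175. HSPB2, HSPB2-C11orf52, HSPB3 and HSPB7 held only added numbers. HSPB6 and HSPB9 had 0 to 13 counts in knockdown libraries and 1 to 102 in control libraries, and HSPB8 had 28, 15 and 12 in knockdown libraries and 12, 2 and 1 in control libraries. Modelled as reads plus an added number, HSPB8 had a log2 fold change of 3.73, with a 95% interval of 2.22 to 6.15, the opposite direction to HSPB1.

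The other 16 DNAJ genes were not tested either. DNAJB8 and DNAJC25-GNG10 held only added numbers. DNAJB7, DNAJB13, DNAJC5B, DNAJC5G, DNAJC22, DNAJC25, DNAJC27 and DNAJC28 had means of 7.0 to 40.5 counts. DNAJB4, DNAJB9, DNAJB14, DNAJC2, DNAJC13 and DNAJC24 had means of 41.5 to 81.2 counts. DNAJB9, a chaperone of the endoplasmic reticulum that is induced by unfolded proteins there, had 56, 81 and 83 counts in knockdown libraries, against 37, 41 and 34 in control libraries. Modelled as reads plus an added number, its log2 fold change was 1.05, with a 95% interval of 0.66 to 1.5. DNAJC2, the ribosome partner of HSPA14, had 52, 24 and 41 counts in knockdown libraries and 163, 155 and 35 in control libraries. Its modelled value was -0.52, with a 95% interval of -0.94 to -0.11.

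HSF1, which is known to act through heat shock elements, did not rise as a transcript. It had 292, 302 and 276 CPM in knockdown libraries, against 362, 349 and 348 CPM in control libraries, a log2 fold change of -0.28 (standard error 0.04, adjusted p = 5.55e-05 by edgeR). With the trend on GC content and length removed the value was 0.06. HSF2 had 227, 370 and 258 counts in knockdown libraries and 167, 244 and 144 in control libraries, with a log2 fold change of 0.65 (standard error 0.26, adjusted p = 0.0509 by edgeR) and overlapping groups. HSF2 passed under 9 alternatives, among them DESeq2 (adjusted p = 0.0142), limma-voom (adjusted p = 0.0397) and the model of reads plus an added number. In the list of 6 heat shock factors and their regulators, 4 genes were tested. Of these, 1 rose (HIKESHI) and 1 fell (HSF1), beside 28.2% and 29.0% of all genes tested. HSF4 and HSF5 had too few counts. HIKESHI, which carries HSP70 into the nucleus, was at 0.23 (edgeR adjusted p = 0.031), and its call was lost without control replicate 1 or 2 or knockdown replicate 2 or 3. The activity of HSF1 depends on its release from chaperones and on phosphorylation, which transcript levels do not show. The part of HSF1 in these results was not tested.

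Of 14 HSP90 co-chaperone genes, 11 were tested. Of these, 7 rose and 3 fell, beside 28.2% and 29.0% of all genes tested called higher and lower. PTGES3, the p23 co-chaperone of closed HSP90, averaged 305 ± 7.2 CPM in knockdown libraries and 156 ± 10.2 CPM in control libraries (SD, n = 3 each), with a log2 fold change of 0.96 (edgeR adjusted p = 8.98e-09). AHSA1, which speeds HSP90's ATP hydrolysis, averaged 227 ± 0.7 CPM in knockdown libraries and 129 ± 10.1 CPM in control libraries, with a log2 fold change of 0.81. FKBP4 (0.62), PPID (0.97) and STIP1 (0.51), proteins with tetratricopeptide repeats that bind the tail of HSP90, also rose, as did CDC37 and FKBP5 by less. FKBP5, with the trend on GC content and length removed, was at 0.13 (edgeR adjusted p = 0.0789). PPP5C, the phosphatase that acts on HSP90 and its clients, fell with 132, 133 and 127 CPM in knockdown libraries, against 279, 271 and 286 CPM in control libraries. Its log2 fold change was -1.09 ± 0.04 (SE, edgeR's adjusted p = 5.6e-10). UNC45A fell by less, and was at 0.03 with the trend on GC content and length removed.

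All 14 HSP70 co-chaperone and exchange factor genes were tested, and 6 rose and 3 fell, with a median log2 fold change of 0.09, beside 28.2% and 29.0% of all genes tested called higher and lower. BAG2, which holds back the ubiquitin ligase STUB1, averaged 22.6 ± 0.6 CPM in knockdown libraries and 11.4 ± 1.5 CPM in control libraries, with a log2 fold change of 0.98 (edgeR adjusted p = 0.000118). ST13, the HSP70-interacting protein HIP, had a log2 fold change of 0.68. GRPEL2, an exchange factor of HSPA9 in mitochondria, fell with 187, 162 and 170 counts in knockdown libraries, against 260, 370 and 343 in control libraries, a log2 fold change of -0.87 (edgeR adjusted p = 0.00286). Its paralog GRPEL1 rose at 0.39. STUB1 fell at -0.28, and was at 0.03 with the trend on GC content and length removed.

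Of 8 family members with other names, 6 were tested. Of these, 1 rose and 4 fell, beside 28.2% and 29.0% of all genes tested called higher and lower. TRAP1, the HSP90 protein of mitochondria, had 225, 234 and 220 CPM in knockdown libraries, against 353, 338 and 357 CPM in control libraries, a log2 fold change of -0.63 (standard error 0.04, adjusted p = 4.2e-08 by edgeR). HSCB, the J-domain protein of iron-sulfur cluster assembly, was at -0.73 (edgeR adjusted p = 0.00976) and CLPB, a mitochondrial disaggregase, at -0.39. SEC63, the J-domain protein of the translocon, was at -0.62, and its call was lost without control replicate 1 or 2 or knockdown replicate 2 or 3, at edgeR adjusted p values of 0.0508 to 0.111. Grouped by compartment after the values were seen, mitochondrial chaperones moved in both directions: HSPA9, HSPD1, HSPE1 and GRPEL1 rose, TRAP1, HSCB, CLPB, DNAJA3, DNAJC30 and GRPEL2 fell, and DNAJC11, DNAJC15 and DNAJC19 did not pass.

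Of 11 heat-inducible genes outside the families, 9 were tested. Of these, 6 rose and 3 did not pass, beside 28.2% of all genes tested called higher. BAG3, STIP1, AHSA1 and FKBP4 are also in the lists above. SERPINH1, the collagen chaperone HSP47, had 474, 485 and 491 CPM in knockdown libraries, against 227, 228 and 218 CPM in control libraries, a log2 fold change of 1.11 (standard error 0.03, adjusted p = 1.95e-10 by edgeR). CACYBP, a partner of ubiquitin ligases, averaged 71.9 ± 5.7 CPM in knockdown libraries and 32.7 ± 0.5 CPM in control libraries, with a log2 fold change of 1.14 (edgeR adjusted p = 9.79e-08). BAG3, an exchange factor that links HSP70 to small heat shock proteins and autophagy, rose at 0.45. The heat-inducible genes UBB (0.08), ZFAND2A (0.30) and IER5 (-0.14) did not pass.

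Not every called member depended on the processing alike. Of the 32 members called, 23 kept their call under every alternative they were tested in but the 1.5-fold test, and 14 also passed that test, all of them higher. Those 14 were HSPA1A, HSPA1B, HSPA8, HSP90AB1, HSPH1, HSPA9, HSPD1, HSPE1, DNAJA1, DNAJA4, DNAJB5, DNAJB6, DNAJB11 and DNAJC8.

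**Figure D5:**
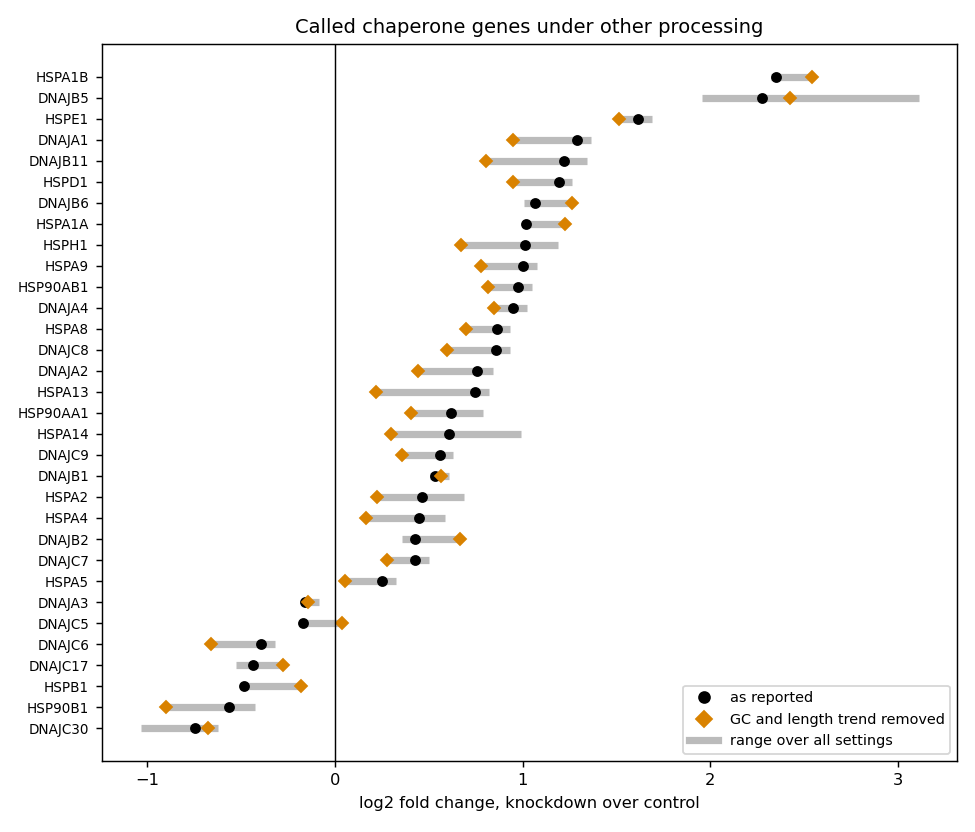
Log2 fold change (knockdown over control) of the 32 called members as reported (black), with the trend on GC content and length removed (orange), and the range over all settings (grey bars). The order of the strongest members is similar in the black and orange points, while HSPA5 lies at 0.25 in black and 0.05 in orange and DNAJC5 at -0.17 in black and 0.04 in orange.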

How the data were processed

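The deposited table holds whole-number counts per gene for 6 libraries, made by the authors. Per the submitters' processing notes, the reads were handled with STAR, HTSeq, fastp, FastQC, R 4.3.3 and DESeq2, with no roles given, on GRCh38. Neither strand setting nor annotation release is given in the sources used here. The values appear to be read counts plus a number drawn from 0, 1, 2, 10 and 100, with a mean of 22.6.

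IDs were matched to symbols for 61803 of 61852 genes, and coordinates, exon lengths and GC content came from GENCODE release 29. The members, the lists and the rule for named genes were chosen with earlier results of these data known. The rule names MELK, all members outside the DNAJ class, DNAJ members past the threshold with a log2 fold change of at least 0.5 and a mean of at least 500 counts, the mitochondrial DNAJ genes, and list genes past the threshold with at least 0.5. Some genes of the lists are not reported here.

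Counts were fitted with edgeR 4.0.16: TMM, filterByExpr, a mean above 100 counts over the 6 libraries (9356 genes), a robust quasi-likelihood F-test, and Benjamini-Hochberg adjustment over all genes tested with a threshold of 0.05. Replicate numbers were not used as a block: deviations of same-numbered libraries correlated at 0.1, -0.01 and -0.08, so the numbers were not taken to pair them. A second model treats each count as negative binomial reads (dispersion 0.00293) plus the added number. Alternatives used DESeq2 1.42.0, limma 3.58.1, other scalings and filters, removal of a trend on GC content and length, and each library left out. The fits were tested on simulated data.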

Additional observations from a re-analysis of the deposited data

How the results depend on the processing

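The 25 members called higher stayed between 22 and 27 under other scalings, filters and tools, apart from the fit restricted to a mean of at least 500 counts (19) and the test against a fold change of 1.5 (14 higher and 0 lower). With 1 library left out, the counts were 23 to 26 higher and 5 to 6 lower, and DNAJ genes lower were 3 without knockdown replicate 2. Against a fold change of 1.5, 692 genes in all were higher and 773 lower, with 3 HSP70 and 6 DNAJ members higher and 0 lower in the DNAJ, HSP90 and small heat shock protein classes. With a mean of at least 500 counts, 5 HSP70 members were higher, 3 DNAJ members lower, and the members' median was 0.57. With the trend on GC content and length removed, 4 HSP70 members were higher and the median was 0.22. Scaling by library totals alone gave 4 members lower, of which 2 were DNAJ genes, and 3077 genes higher and 2331 lower in all. With filterByExpr alone or no filter, 3 DNAJ members were lower. The model of reads plus an added number gave 11 members lower, of which 9 were DNAJ genes. The cause was not tested.

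Removing the GC and length trend turned the sign of DNAJC11 (0.13), DNAJC5 (0.038), STUB1 (0.031), UNC45A (0.031), HSF1 (0.060) and HIKESHI (-0.17). In the small pathway lists the same setting gave 0 heat shock factors and regulators higher and 0 lower, 1 HSP70 co-chaperone lower and 1 heat-inducible gene lower. Heat shock factors and regulators higher were 2 with relative log expression and limma-voom, 3 with upper quartile scaling, library totals, DESeq2, the model of added numbers and the replicate block, 0 with filterByExpr alone and no filter, and 0 to 3 with 1 library left out. Against a fold change of 1.5 the lists gave 0 higher and 0 lower (heat shock factors), 2 higher and 1 lower (HSP90 co-chaperones), 1 higher and 0 lower (HSP70 co-chaperones), 0 lower (other family members) and 3 higher (heat-inducible genes). Of the other family members, 2 were lower with no filter or a mean of at least 500 counts.

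With the replicate number as a block, 26 members were higher and 7 lower, and 2637 genes in all were higher and 2723 lower. HSPA6 then passed the threshold, at a log2 fold change of 1.16 (edgeR adjusted p = 0.0145). HSF2 passed under 9 alternatives and HSPA6 under 6, the replicate block among them. The 28 members that were not tested have mean counts below 100, the largest added number.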
